A study of Mus musculus with 9 samples.

Results

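The microRNA miR-203 was followed through liver fibrosis and its spontaneous recovery in mouse liver, together with the transcript annotated on the opposite strand of the same hairpin. The 4 mature rows described are mmu-miR-203-3p, mmu-miR-203-5p, mmu-miR-203b-5p and mmu-miR-203b-3p, out of 1140 rows in the deposited small RNA table. The rows were selected by name with results of these data already known, and on the observation that the counts of mmu-miR-203-5p and mmu-miR-203b-3p were nearly the same. Their levels, fold changes and calls of differential expression and the near-equality of those 2 rows are therefore given as a description. The intervals of the fitted fold changes show their spread and are not independent evidence, and no p-value is given for them.

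A microRNA precursor folds into a hairpin, and either arm of the hairpin, called 5p or 3p, can be cut out and loaded into an Argonaute protein. Bases 2 to 8 of the loaded strand, the seed, select the messenger RNAs that it represses. miR-203 is best known from stratified epithelium, where the 3p strand restrains the transcription factor p63 as keratinocytes leave the cell cycle, and it is also present in liver. The name miR-203b denotes a precursor annotated antisense to miR-203.

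Livers of 9 male C57BL/6 mice were sequenced, with 3 mice in each of 3 groups and a separate mouse for each library. The mice were 8 weeks old when obtained. Control mice were injected intraperitoneally with normal saline for 8 weeks. TAA mice were injected in the same way with thioacetamide, a compound that injures hepatocytes and leaves a fibrotic liver, for 8 weeks. Recovery mice received the same 8 weeks of thioacetamide and were then left untreated for 8 weeks, so that they were killed later than the other mice, and recovery cannot be told apart from age. Whole liver tissue was used, and in such tissue fewer cells of a type and less RNA per cell cannot be told apart. Libraries held 9071847 to 12983378 counts, and no batch was named.

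All 4 rows were matched by name to mature sequences of RefSeq (mouse build GRCm38.p6), which are shown because the comparison of the rows depends on them. Capitals mark the seed, and each sequence is written 5′ to 3′.
mmu-miR-203-3p: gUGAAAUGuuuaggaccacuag
mmu-miR-203-5p: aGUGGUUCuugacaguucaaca
mmu-miR-203b-5p: aGUGGUCCuaaacauuucac
mmu-miR-203b-3p: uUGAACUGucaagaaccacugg

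The hairpin of Mir203 lies on chromosome 12 of GRCm38.p6, on the plus strand, from 112130880 to 112130955, and is 76 bases long. In the hairpin sequence, capitals mark the 5p arm at bases 10 to 31 and the 3p arm at bases 48 to 69.
Mir203 hairpin: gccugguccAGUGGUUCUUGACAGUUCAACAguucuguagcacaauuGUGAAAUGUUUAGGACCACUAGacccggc

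mmu-miR-203-5p occupies 112130889 to 112130910 and mmu-miR-203-3p occupies 112130927 to 112130948 on the plus strand. The miR-203b strands read in the other direction from the same bases. mmu-miR-203b-5p lies from 112130927 to 112130946 on the minus strand, opposite the 3p arm, and mmu-miR-203b-3p lies from 112130887 to 112130908, opposite the 5p arm. Each mature miR-203 strand was thus the exact complement of a miR-203b strand over a run of 20 bases. These runs are shown in capitals.
mmu-miR-203-3p, bases 1 to 20 in capitals: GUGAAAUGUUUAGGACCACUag
mmu-miR-203b-5p, bases 1 to 20 in capitals: AGUGGUCCUAAACAUUUCAC
mmu-miR-203-5p, bases 1 to 20 in capitals: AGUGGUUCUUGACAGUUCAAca
mmu-miR-203b-3p, bases 1 to 20 in capitals: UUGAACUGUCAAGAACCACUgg

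No 2 of the 4 strands shared a seed, and none shared its seed with another of the 935 rows for which a sequence was at hand. The seeds of mmu-miR-203-5p and mmu-miR-203b-5p, GUGGUUC and GUGGUCC, were alike but not equal. No protein-coding gene overlapped the hairpin. The end of Aspg lay 3.32 kb before it and the start of Kif26a lay 15.25 kb after it, both genes being on the plus strand.

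The table gave miR-203 and miR-203b very unequal counts on the 2 arms. Rows were ranked by their mean over the 9 libraries of counts scaled with the TMM factors described below, without a correction for length. On this measure mmu-miR-203-3p ranked 37th of 1140 rows and mmu-miR-203b-5p ranked 81st. mmu-miR-203-5p ranked 197th and mmu-miR-203b-3p ranked 198th. The abundant rows were therefore the 3p strand of miR-203, the strand for which repression of p63 is known, and the strand annotated opposite to it.

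mmu-miR-203-5p was counted 231, 163 and 145 times in the control livers, 323, 198 and 205 times in the TAA livers, and 146, 201 and 158 times in the recovery livers. mmu-miR-203b-3p was counted 230, 162 and 143 times, 321, 198 and 205 times, and 146, 198 and 158 times. The 2 rows differed by 0 to 3 reads in a library, were equal in 4 libraries, and summed to 1770 and 1761 reads. The sources used here do not say whether strand entered the authors' counting, and without strand the reads of the 2 rows cannot be told apart. The values of mmu-miR-203-5p given below therefore stand for both rows unless mmu-miR-203b-3p is named.

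The other complementary pair behaved differently in the same table. mmu-miR-203-3p was counted 12984, 7521 and 6964 times in control, 6967, 5055 and 5290 times in TAA, and 9782, 11616 and 11428 times in recovery livers. mmu-miR-203b-5p was counted 3515, 1706 and 1416 times, 1241, 1113 and 1122 times, and 1904, 2118 and 2304 times. Although these 2 sequences were also complementary over 20 bases, the lower row held 21.2% of the count of the higher row, and no library approached equality.

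Among all listed rows with a sequence, 34 pairs were complementary over at least 16 bases, and 24 of them had at least 100 counts in the higher row. These 24 include pairs named as both arms of a single hairpin. Examples are mmu-miR-299a-3p with mmu-miR-299a-5p at 9.04% and mmu-miR-5615-3p with mmu-miR-5615-5p at 100%. In 10 of these 24 pairs the lower row held at least 95% of the higher row, in 6 pairs it held 10 to 95%, and in 8 pairs it held under 10%. With a run of at least 20 bases 12 pairs were left, of which 8 held at least 95%, 4 held 10 to 95%, and none held less. The pair mmu-miR-203-5p and mmu-miR-203b-3p, at 99.5%, was in the same class as mmu-miR-24-3p and mmu-miR-3074-5p at 99.9%. The pair mmu-miR-203-3p and mmu-miR-203b-5p was in the smaller class with mmu-miR-136-5p and mmu-miR-3071-3p at 30.9%, mmu-miR-219a-1-3p and mmu-miR-219c-5p at 16.4%, and mmu-miR-3073a-3p and mmu-miR-3073b-5p at 68.2%. With a run of at least 20 bases it was the only pair of that class whose higher row exceeded 1000 counts, with 77607 summed over the 9 libraries. With shorter runs of at least 16 bases, mmu-miR-30a-3p and mmu-miR-30e-3p, each paired with mmu-miR-30f, were also between 10 and 95%. They lay at 10.1% and 26.2%, with 27271 and 10549 counts in the higher row.

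**Figure D1:**
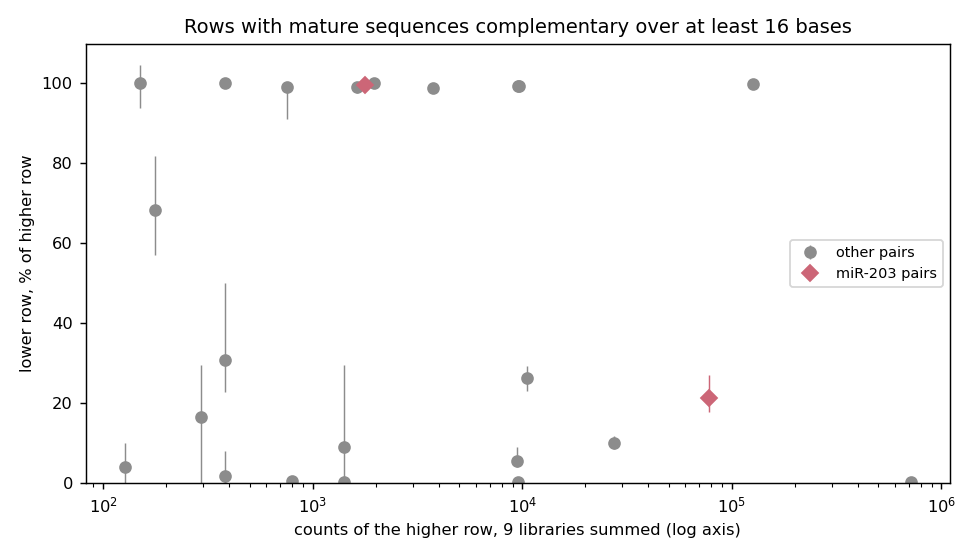
The 24 pairs of rows with mature sequences complementary over at least 16 bases and at least 100 counts in the higher row, with the summed count of the higher row on a logarithmic horizontal axis and the lower row as a percent of the higher row on the vertical axis. Points give the value over all 9 libraries and lines the lowest and highest library. The miR-203 pairs (diamonds) lie at 99.5% and at 21.2%.

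The nearest listed microRNAs on chromosome 12 showed the same arrangement of rows at low counts. Mir3073a and Mir3073b, annotated on opposite strands within Aspg 21.57 kb from the miR-203 hairpin, had 60 counts each for mmu-miR-3073a-5p and mmu-miR-3073b-3p. mmu-miR-3073a-3p had 176 counts and mmu-miR-3073b-5p had 120. Whether the miR-203 locus and this neighbour are transcribed together was not tested.

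TAA livers held less of the miR-203 3p strand than control or recovery livers. The counts were scaled to counts per 1000000 (CPM) with TMM factors, which assume that most rows do not change between libraries. mmu-miR-203-3p was then at 1263, 992 and 927 CPM in control livers, 430, 341 and 355 CPM in TAA livers, and 1046, 1067 and 1047 CPM in recovery livers. All 3 TAA livers lay below all control and all recovery livers, and the latter groups overlapped. The group means were 1061 ± 178, 375 ± 47.6 and 1053 ± 11.97 CPM (SD, n = 3).

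In the edgeR quasi-likelihood fit over all 420 rows tested, mmu-miR-203-3p changed on the log2 scale by −1.59 (SE 0.16, approximate 95% interval −2.04 to −1.14) in TAA vs control, a level 3.02-fold lower. In recovery vs TAA it was 1.47 (SE 0.13, interval 1.10 to 1.84), a level 2.77-fold higher. In recovery vs control it was −0.05 (SE 0.12, interval −0.39 to 0.29), so that a difference larger than these bounds in either direction was outside the interval. TAA vs control placed 28 of 420 rows lower than mmu-miR-203-3p, and recovery vs TAA placed 18 of 440 rows higher.

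The opposite-strand row mmu-miR-203b-5p followed the same course at a lower level. It was at 342, 225 and 188 CPM in control, 76.5, 75.1 and 75.3 CPM in TAA, and 204, 195 and 211 CPM in recovery livers, with means of 252 ± 80.1, 75.7 ± 0.763 and 203 ± 8.27 CPM (SD, n = 3). The TAA livers again lay below all others, whereas control and recovery livers overlapped. Control replicate 1 was the highest library for both rows.

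Its log2 fold change was −1.83 (SE 0.24, interval −2.48 to −1.17) in TAA vs control, a level 3.54-fold lower, and 1.40 (SE 0.13, interval 1.05 to 1.76) in recovery vs TAA, a level 2.64-fold higher. In recovery vs control it was −0.35 (SE 0.20, interval −0.90 to 0.20), and −0.07 without control replicate 1. Across the 9 libraries log2(CPM + 1) of mmu-miR-203b-5p and mmu-miR-203-3p correlated with Pearson r = 0.976, a description over points that share their libraries and scaling. Whether strand entered the counting was not stated for mmu-miR-203b-5p either, and which strand its reads came from was not tested.

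The 5p strand varied less on this scale. mmu-miR-203-5p was at 22.5, 21.5 and 19.3 CPM in control, 19.9, 13.4 and 13.8 CPM in TAA, and 15.6, 18.5 and 14.5 CPM in recovery livers. TAA livers overlapped both other groups, while the 3 recovery livers lay below the 3 control livers. The means were 21.1 ± 1.62, 15.7 ± 3.67 and 16.2 ± 2.06 CPM (SD, n = 3), and for mmu-miR-203b-3p 20.9 ± 1.71, 15.6 ± 3.60 and 16.1 ± 1.90 CPM.

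For mmu-miR-203-5p the log2 fold change was −0.52 (SE 0.20, interval −1.07 to 0.02) in TAA vs control. It was 0.03 (SE 0.22, interval −0.59 to 0.65) in recovery vs TAA and −0.42 (SE 0.17, interval −0.90 to 0.06) in recovery vs control. Its r with mmu-miR-203-3p over the 9 libraries was 0.532 on this scale. With counts scaled to library totals it was −0.631, so the sign of r depended on the scale.

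A differentially expressed miRNA (DEM) was a row that changed at least 2-fold with an adjusted p (false discovery rate, FDR) under 0.05. All 4 members passed the filter on low counts in each comparison. In TAA vs control 2 of the 4, mmu-miR-203-3p and mmu-miR-203b-5p, were down-regulated DEMs, against 16.7% of the 420 rows tested. In recovery vs TAA the same 2 were up-regulated DEMs, against 10.2% of 440 rows. In recovery vs control 0 of 4 were DEMs in the edgeR fit, against 11.3% of 391 rows in either direction. By DESeq2 0 of 4 were DEMs there, against 43 up-regulated and 4 down-regulated rows. DESeq2 was run on all 1140 rows without the filter on low counts, so its share is not comparable with that of the 391 rows. Since the members were chosen with these results known and 2 of them hold nearly equal counts, nothing is read from the counts. TAA vs control and recovery vs TAA also share the TAA livers.

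**Figure D2:**
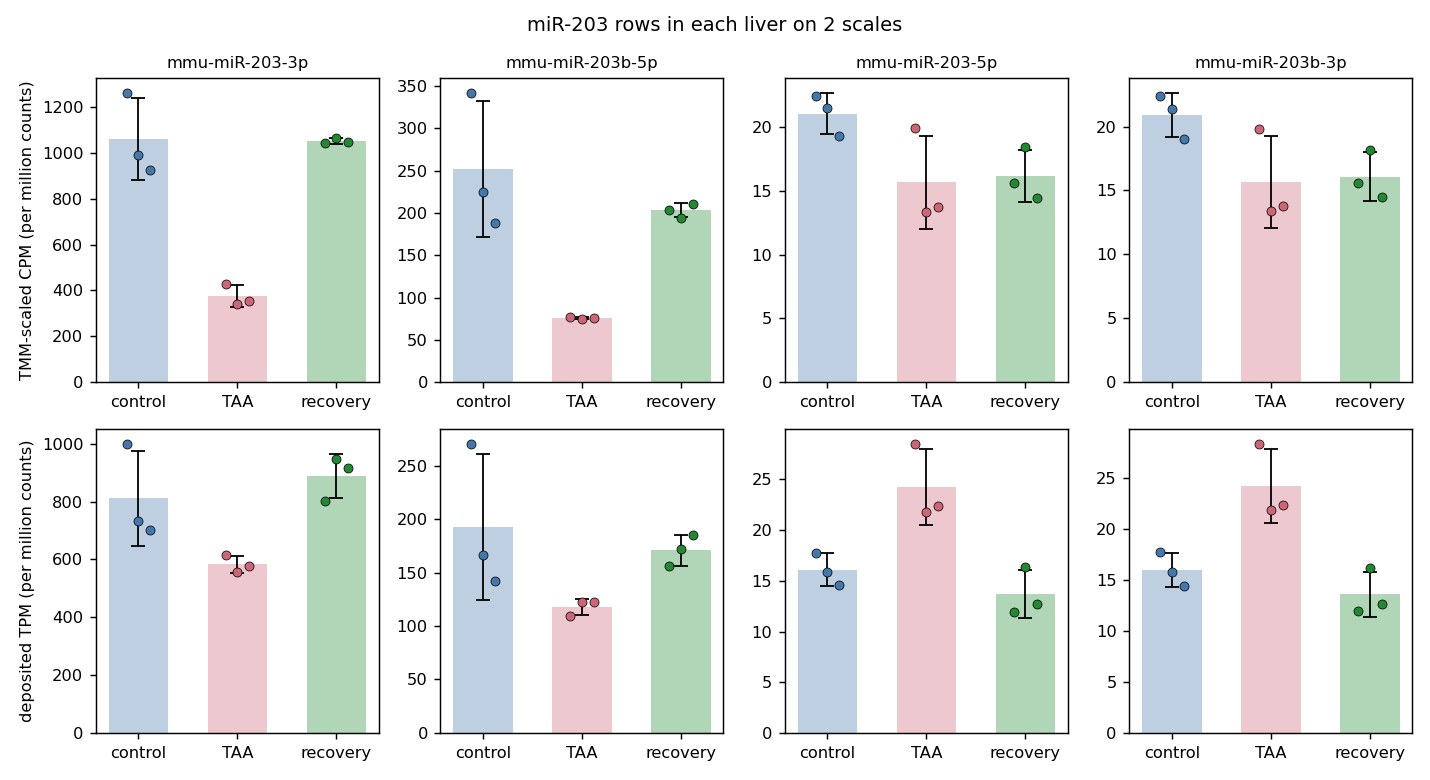
The 4 miR-203 rows in each liver as TMM-scaled CPM (upper row of panels) and as the deposited TPM (lower row), with 1 point per mouse, bars at the group mean and error lines of 1 SD (n = 3). On both scales the TAA livers are the lowest for mmu-miR-203-3p and mmu-miR-203b-5p, whereas for mmu-miR-203-5p and mmu-miR-203b-3p they overlap the other groups in CPM and are the highest in TPM.

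The direction for the 5p strand depended on the scale. The value that the authors called TPM is the count divided by the library total and multiplied by 1000000. On it mmu-miR-203-5p was at 17.8, 15.9 and 14.6 in control, 28.5, 21.8 and 22.4 in TAA, and 11.96, 16.4 and 12.7 in recovery livers. All TAA livers lay above all others there. With library totals in place of TMM factors, the edgeR log2 difference of mmu-miR-203-5p was 0.59 between TAA and control livers and −0.83 between recovery and TAA livers.

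For mmu-miR-203-3p the direction held on both scales, with a smaller size. Its TPM was 1000, 733 and 700 in control, 615, 557 and 577 in TAA, and 801, 947 and 917 in recovery livers. With library totals the log2 fold change was −0.48 when TAA was compared with control and 0.61 when recovery was compared with TAA. Neither mmu-miR-203-3p nor mmu-miR-203b-5p was then a DEM. Over all rows, 4 of 420 were then down-regulated DEMs in TAA vs control and 4 of 440 were up-regulated in recovery vs TAA.

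The scale mattered because the TMM factors were 1.433 to 1.633 in TAA livers, 0.738 to 0.792 in control and 0.766 to 0.887 in recovery livers. Replacing them by library totals moved the median log2 fold change of all rows by 1.12 for TAA vs control, −0.86 for recovery vs TAA and 0.19 for recovery vs control. Size factors of DESeq2 moved it by −0.05, 0.06 and −0.0014. Every change of a miR-203 level is hence relative to the chosen reference, and only the ratio of rows within a library is free of it.

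**Figure D3:**
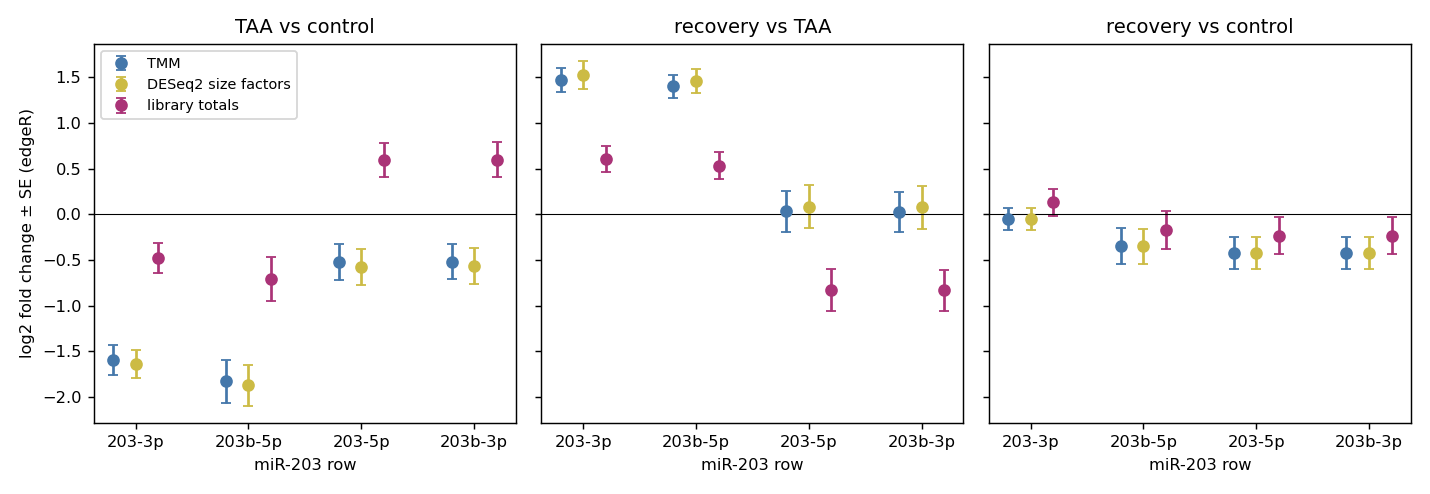
Log2 fold change ± SE from edgeR for the 4 miR-203 rows in the 3 comparisons, with TMM factors, DESeq2 size factors or library totals. With library totals mmu-miR-203-3p moves from −1.59 to −0.48 in TAA vs control, and mmu-miR-203-5p from −0.52 to 0.59.

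The balance of the 2 arms of miR-203 is such a ratio, and its values did not overlap between the groups. The 5p strand made up 1.75%, 2.12% and 2.04% of the reads of both arms in control livers, with 95% Wilson intervals of 1.54 to 1.99%, 1.82 to 2.47% and 1.74 to 2.40%. It made up 4.43%, 3.77% and 3.73% in TAA livers, with intervals of 3.98 to 4.93%, 3.29 to 4.32% and 3.26 to 4.26%. In recovery livers it made up 1.47%, 1.70% and 1.36%, with intervals of 1.25 to 1.73%, 1.48 to 1.95% and 1.17 to 1.59%. Each TAA liver lay above every other liver, and each recovery liver lay below every control liver, although the intervals of some control and recovery livers met. The intervals take each read as an independent molecule, which reads amplified without molecular identifiers are not. They can therefore be too narrow even for counting error, and they leave out differences between mice.

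The mean share was 1.97 ± 0.196% in control, 3.98 ± 0.394% in TAA and 1.51 ± 0.172% in recovery livers (SD, n = 3). The log2 ratio of mmu-miR-203-5p to mmu-miR-203-3p differed by 1.04 (SE 0.12) in TAA vs control, a ratio 2.06-fold higher. It differed by −1.43 (SE 0.13) in recovery vs TAA, a ratio 2.70-fold lower, and by −0.39 (SE 0.13) in recovery vs control, a ratio 1.31-fold lower. In a two-sided exact permutation test each comparison gave p = 0.1, the smallest that 3 against 3 livers allow, and 0.15 after Benjamini-Hochberg adjustment over 6 tests. This design thus could not reach the 0.05 threshold with that test.

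The ratio is built from the counts of the selected rows. With TMM factors the log2 changes in recovery vs TAA were 1.47 for mmu-miR-203-3p and 0.03 for mmu-miR-203-5p. With library totals they were 0.61 and −0.83, so the part of each arm in the difference depends on the scale. The ratio restates those levels without the library scaling and is no independent support for them.

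A limma fit of the same ratio across hairpins with counts on both arms, added after the data were seen, is given only to place miR-203 among them, with no p-value. The difference of miR-203 was 1.04 (SE 0.16) in TAA vs control, where 2 of the 110 hairpins had a larger rise and 5 had a larger difference in size in either direction. It was −1.43 (SE 0.18) in recovery vs TAA, where none of the other 112 hairpins had a larger fall or a larger difference in size. It was −0.39 (SE 0.15) in recovery vs control, where 16 of 104 hairpins had a larger difference in size. At an FDR below 0.05 the fit called 8 of 110 hairpins, or 7.27%, in TAA vs control and 5 of 113, or 4.42%, in recovery vs TAA, miR-203 being 1 of them in both, from which nothing is read. In recovery vs control limma called 0 of 104, or 0%, and 3 hairpins had an unadjusted p below 0.05.

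The antisense hairpin miR-203b was 1 of the hairpins called in both TAA vs control and recovery vs TAA, with differences of −1.25 and 1.36. Its arms are named in the reverse order over the same bases, and its 3p row holds nearly the same counts as mmu-miR-203-5p, so it adds no separate evidence. The arm share was computed from the rows as named, and which strand the reads came from was not tested.

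**Figure D4:**
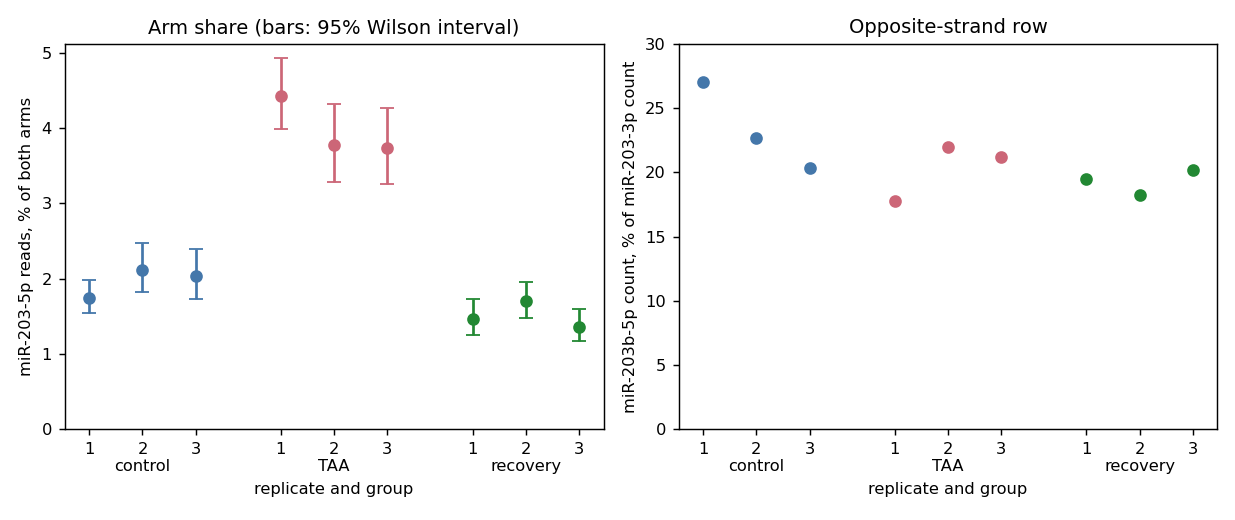
Left, mmu-miR-203-5p reads as a percent of the reads of both miR-203 arms in each library, with 95% Wilson intervals. Right, the count of mmu-miR-203b-5p as a percent of that of mmu-miR-203-3p. The TAA livers lie at 3.73 to 4.43% on the left, above all other livers, and on the right the TAA livers overlap both other groups.

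**Figure D5:**
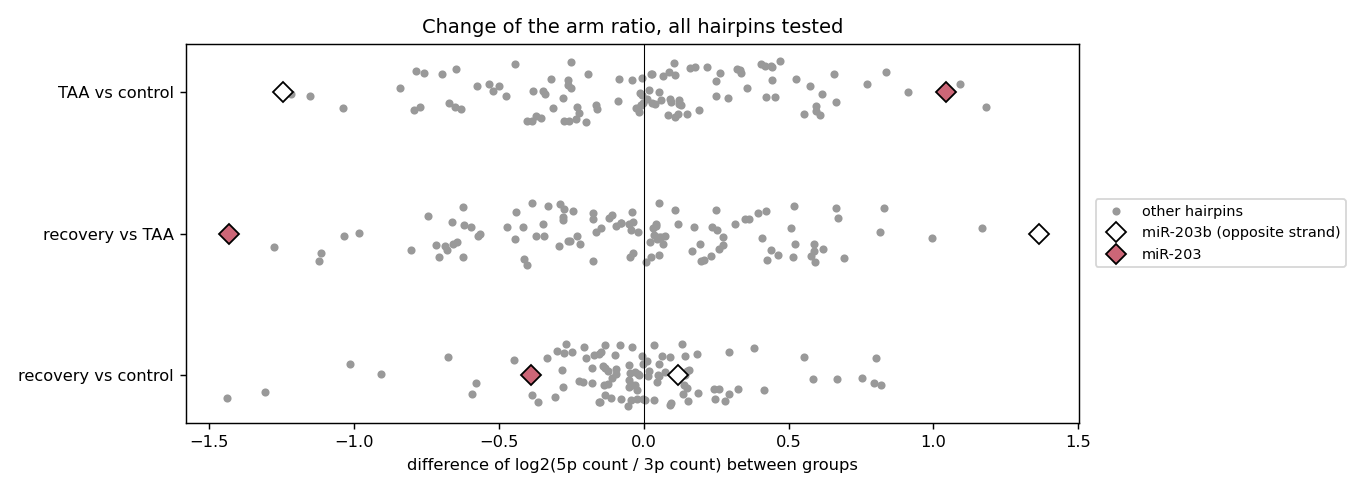
Difference between groups of the log2 ratio of 5p to 3p counts for every hairpin tested, with 1 point per hairpin and a vertical offset that carries no value. miR-203 (filled diamond) is at 1.04 in the upper row and at −1.43 in the middle row, and the antisense miR-203b (open diamond) mirrors it at −1.25 and 1.36.

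The ratio of the 2 abundant rows changed less. The count of mmu-miR-203b-5p was 27.1%, 22.7% and 20.3% of that of mmu-miR-203-3p in control, 17.8%, 22.02% and 21.2% in TAA, and 19.5%, 18.2% and 20.2% in recovery livers. TAA livers overlapped both other groups. The 3 control livers lay above the 3 recovery livers, but narrowly, with 20.33% in control replicate 3 and 20.16% in recovery replicate 3. The means were 23.4 ± 3.42%, 20.3 ± 2.23% and 19.3 ± 0.976% (SD, n = 3).

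The log2 ratio differed by −0.20 (SE 0.15) in TAA vs control with an exact permutation p = 0.4 (adjusted 0.48). It differed by −0.07 (SE 0.10) in recovery vs TAA with an exact permutation p = 0.6 (adjusted 0.6), and by −0.27 (SE 0.13) in recovery vs control with an exact permutation p = 0.1 (adjusted 0.15). Without control replicate 1 the last difference was −0.16. A change of this ratio was therefore not shown, and these p-values do not show that it stayed the same.

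The rows whose course was most like that of mmu-miR-203-3p were found by Pearson r of log2(CPM + 1) over the 9 libraries, among 222 rows with a mean of at least 10 CPM, leaving out the members. They were mmu-miR-126b-3p and mmu-miR-126a-5p (r = 0.992 each), mmu-miR-101b-3p (r = 0.982), and mmu-miR-1948-5p and mmu-miR-1843a-5p (r = 0.979 each). mmu-miR-101b-3p averaged 10941 CPM in control, 3258 CPM in TAA and 8779 CPM in recovery livers. The rows mmu-miR-126b-3p and mmu-miR-126a-5p held nearly the same counts and count as a single course. mmu-miR-126a-5p, an arm of the miRNA that marks endothelium, averaged 785, 475 and 797 CPM, a smaller fall than that of mmu-miR-203-3p. With library totals 3 of the 5 stayed among the 5 most alike, whereas r of mmu-miR-126b-3p was −0.31.

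Because miR-203 is best known from stratified epithelium, other miRNAs known from epithelium were compared with it. Of a list of 9, comprising the miR-200 family, the miR-183 cluster and mmu-miR-205-5p, 8 were up-regulated DEMs in TAA vs control, where 25.0% of all rows were, and 9 were down-regulated DEMs in recovery vs TAA, where 14.5% were. The median log2 fold change of the list was 2.06 and −1.78, against 0.11 and −0.12 over all rows tested. mmu-miR-200b-3p, a marker of bile duct epithelium, averaged 335 ± 41.1 CPM in control, 2372 ± 713 CPM in TAA and 631 ± 43.4 CPM in recovery livers (SD, n = 3). The log2 fold changes of mmu-miR-203-3p had the opposite sign to 8 of these 9 rows in the first comparison and to all 9 in the second, with TMM factors.

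mmu-miR-205-5p, which shares with miR-203 its place in skin, was the row of the list that was no DEM in TAA vs control. It was at 4.35 to 9.18 CPM in control, 3.98 to 6.84 CPM in TAA and 1.10 to 1.92 CPM in recovery livers, far below mmu-miR-203-3p in counts. Its log2 fold change in TAA vs control was −0.34 (SE 0.33, edgeR FDR = 0.405) with TMM factors. The log2 ratio of its group means of TPM, without a fit, was 0.77. It was a down-regulated DEM in recovery vs TAA at −1.78 and in recovery vs control at −2.04.

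The markers of other cell types gave different pictures. mmu-miR-122-5p, the miRNA that marks hepatocytes and hence liver, averaged 266790 CPM in control, 72637 CPM in TAA and 237510 CPM in recovery livers. All 5 hepatocyte rows were down-regulated DEMs in TAA vs control, where 16.7% of all rows were. Recovery vs TAA had 4 of these 5 up-regulated, where 10.2% were. Their summed level was 516372 to 534980 CPM in control, 149291 to 178161 CPM in TAA and 427070 to 508907 CPM in recovery livers. Their median log2 fold changes of −1.58 and 1.20 lay beside −1.59 and 1.47 for mmu-miR-203-3p. As log2 ratios of group means of TPM, without a fit, they were −0.46 and 0.33 beside −0.48 and 0.61.

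The 5 biliary rows, all part of the epithelial list, were up-regulated DEMs in TAA vs control, against 25.0% of all rows, and down-regulated DEMs in recovery vs TAA, against 14.5%. They summed to 582 to 764 CPM in control, 3331 to 5534 CPM in TAA and 1240 to 1415 CPM in recovery livers. Of 5 stellate cell rows 3 were up-regulated DEMs in the first of these comparisons and 3 were down-regulated DEMs in the second. The other two, mmu-miR-143-3p and mmu-miR-145a-5p, had log2 fold changes of −0.02 and −0.25 in TAA vs control. Of 5 leukocyte rows 2 were up-regulated DEMs in the first comparison and 1 was a down-regulated DEM in the second, against the same 25.0% and 14.5% of all rows. The 2 endothelial rows were DEMs in neither comparison, and their median log2 fold change for TAA vs control was −0.68. As a log2 ratio of group means of TPM, without a fit, the median was 0.44. No row of these lists was at 0 in any library, and the part of cell composition in the levels of miR-203 was not tested.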

How the data were processed

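The authors extracted liver RNA with TRIzol, prepared small RNA libraries with a ligation-based kit, filtered the reads with their own scripts and mapped them with Bowtie (version 1.3.0 in the submitters' processing notes) to the mouse genome and to miRBase. The deposited table held 1 read count per mature miRNA and library, not normalized, and the value the authors called TPM, which equalled the count scaled to the column total with no term for length (largest difference 4.96e-05). The treatment of strand and of reads that match several miRNAs was not stated. The members and the lists were chosen with earlier results of these data known.

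Each comparison used its 6 libraries in edgeR 4.0.16 (R 4.3.3), with filterByExpr (minimum count 10), TMM factors, the quasi-likelihood F test without covariates and Benjamini-Hochberg adjustment. SE was the size of the log2 fold change divided by the square root of F, and intervals used a t distribution with 4 degrees of freedom. Count ratios within a library were tested by exact permutation. Hairpins with a mean of at least 10 counts on both arms were compared by limma 3.58.1 on log2 ratios after adding 0.5. Named rows were the 4 members, the 5 rows most alike to mmu-miR-203-3p, the complementary pairs and the marker lists. DESeq2 1.42.0, other scalings, filters, pseudocounts on TPM, a replicate block and leaving out each library were alternatives. Scripts were tested on simulated data. Replicates were compared, and no pair agreed within sampling noise. The correlations of deviations of libraries with the same replicate number ranged from −0.357 to 0.368 over 9 pairs and exceeded 0.1 in 4, so the numbers were not taken to pair the mice. The mRNA libraries were not analysed here.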

Additional observations from a re-analysis of the deposited data

How the results depend on the processing

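Scaling decided whether the miR-203 rows were DEMs. With library totals, with limma on log2(TPM + 1) and with limma on log2(TPM + 0.1), 0 of 4 rows were DEMs in TAA vs control and 0 of 4 in recovery vs TAA, against 2 of 4 in each with TMM factors. In TAA vs control these settings called 241, 211 and 240 of 420 rows up and 4, 2 and 4 down. In recovery vs TAA they called 4, 3 and 4 of 440 rows up and 203, 156 and 190 down. Nothing is read from the counts of members. In that order of settings, mmu-miR-203-3p was at −0.48, −0.46 and −0.46 in TAA vs control and at 0.61, 0.60 and 0.60 in recovery vs TAA, with its direction kept. mmu-miR-203-5p turned to 0.59, 0.56 and 0.58 in TAA vs control and to −0.83, −0.78 and −0.82 in recovery vs TAA. mmu-miR-203b-3p turned to 0.60, 0.57 and 0.59 and to −0.83, −0.79 and −0.83. In recovery vs control mmu-miR-203-3p, not a DEM there, turned to 0.13, 0.15 and 0.15. With rows of a mean of at least 10 CPM it was 0.021, and mmu-miR-203-5p and mmu-miR-203b-3p were each −0.13 in recovery vs TAA. The cause of these 3 turns was not tested. Removing the miR-203b rows left 1 DEM among the members in each of the first 2 comparisons, since those rows were gone. Over all rows, 70 of 418 were then down-regulated DEMs in TAA vs control and 44 of 438 were up-regulated in recovery vs TAA.

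Leaving out 1 library at a time kept 2, 2 and 0 DEMs among the members in the 3 comparisons. Over all rows, TAA vs control then had 61 to 73 down-regulated DEMs among 434 to 463 rows. Recovery vs TAA had 45 to 57 up-regulated DEMs among 453 to 468 rows. Recovery vs control had 34 to 44 up-regulated and 1 to 3 down-regulated DEMs among 401 to 411 rows. Since the members were chosen with these results known, nothing is read from their counts. mmu-miR-203-3p ranged from −1.70 to −1.44 in TAA vs control, from 1.45 to 1.62 in recovery vs TAA, and from −0.16 to 0.093 in recovery vs control, with 0.093 without control replicate 1. In recovery vs TAA mmu-miR-203-5p ranged from −0.054 to 0.27 and mmu-miR-203b-3p from −0.050 to 0.27, and both were below 0 without TAA replicate 2, TAA replicate 3 or recovery replicate 2. These values lay within the interval of the fit to all 6 libraries, and the cause was not tested. With a replicate block 2, 2 and 0 members were DEMs, and mmu-miR-203-3p was at −1.58, 1.47 and −0.03. The difference in the ratio of the arms was 1.04 and −1.43 in limma with either minimum count. This fit was added after the data were seen and uses the counts of the selected rows, so nothing is read from it. The exact permutation test gave an adjusted p of 0.15 and could not reach 0.05 with 3 livers per group. Complementary pairs numbered 19 with a run of at least 20 bases and 125 with up to 2 mismatches in 16 bases, against 34. With library totals 3 of the 5 rows most alike to mmu-miR-203-3p were kept. The 5p counts of 145 to 323 reads in a library limit the precision of the arm share.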
